A study of Mus musculus with 18 samples.

Results

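The comparison set 3 *Kmt2d* KO libraries of the 168FARN line against the 3 WT libraries of the same line. These 6 libraries, chosen by cell line and genotype alone, are part of a series of 18 RNA-seq libraries. 168FARN is a mouse mammary tumour line that does not form metastases on its own. The WT libraries are labelled WT and also sgControl, and the study's methods do not describe a control guide RNA. The *Kmt2d* KO cells had been transfected with 3 guide RNAs against exon 1 of *Kmt2d* and a plasmid for Cas9 and GFP in repeated rounds, sorted, and kept as a pool and not as a clone, so each value is a mean over cells with different edits. The 3 *Kmt2c* KO libraries of the same line entered the same fit, which thus held 9 libraries, and the *Kmt2d* KO and WT libraries of a second line, 67NR, gave 6 libraries for comparison. The study collected the replicates of a cell line a passage apart and names no separately derived pools for the 3 libraries of a genotype. The p-values thus measure the spread between these libraries only.

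KMT2D is a histone H3 lysine 4 methyltransferase. Either KMT2D or its paralogue KMT2C works with the demethylase KDM6A in a large complex of the COMPASS family. The complex places monomethylation at enhancers and helps to activate them, and the genes for its subunits are often mutated in cancer. Expression is given here as CPM, the reads on a gene per 1000000 reads of a library after scaling by the TMM method, and differences as log2 fold changes of *Kmt2d* KO over WT. A gene was called when the Benjamini-Hochberg adjusted p of edgeR's quasi-likelihood test was under 0.05, in a fit with genotype and replicate number.

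The guides are shown because they define the knockout. Each is written 5′ to 3′ in lower case, with the PAM next to it in the genome in capitals.
Kmt2d sg1: acggtaaatccaggtcggagTGG
Kmt2d sg2: gaaatcctcatccgagaacaTGG
Kmt2d sg3: gagtggtcacccttcccccgGGG
In mm9, *Kmt2d* is a minus-strand gene of chromosome 15 that spans 98662100 to 98701614. All 3 guides matched the plus strand there, at 98701571 to 98701590 (sg1), 98701464 to 98701483 (sg2) and 98701588 to 98701607 (sg3). The reverse oligo listed for sg2 was not the complement of its forward oligo, so the sequence printed for sg2 rests on the forward oligo alone. These sites fall in exon 1 of the 55 exons of the annotated transcript, from 98701445 to 98701614. The annotation used here marks that exon as not coding, with the start codon at 98697151 in exon 2.

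*Kmt2d* mRNA was counted at 160, 159 and 104 CPM in WT (replicates 1, 2 and 3) and at 296, 260 and 136 CPM in the *Kmt2d* KO replicates. Its level was higher in the knockout of each replicate pair, a log2 fold change of 0.66 (standard error 0.12, edgeR adjusted p = 0.0062), although the groups overlapped. The call was kept in 3 of the 6 fits that each left out 1 library. The counts thus did not show a loss of *Kmt2d* mRNA in the libraries labelled *Kmt2d* KO, and edits in exon 1 cannot be read from counts per gene. The study reported mutant reads at the targeted site and less KMT2D protein in these knockout cells, which were not measured here.

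Libraries of 168FARN held 14359760 to 43427382 counted reads, and the shallowest was *Kmt2d* KO replicate 2. Replicate 3 stood apart in every genotype. *Itga10*, an integrin subunit, was at 21.4 and 21.8 CPM in WT replicates 1 and 2 and at 1.51 CPM in WT replicate 3, and *Mcm6*, a DNA replication helicase subunit, at 17.4, 18.9 and 202 CPM. In the knockout the same genes stood at 61.1, 58.9 and 3.89 CPM and at 24.5, 30.9 and 254 CPM, so that replicates with the same number moved together. Of 24 epithelial genes only 5 passed the filter on low counts, and *Epcam*, *Cldn4* and *Cldn7* were at 0 in all 6 libraries. The 24 genes still summed to between 127 and 394 CPM in WT and 101 and 383 CPM in the knockout, with *Krt8*, given below, among them. The 26 mesenchymal genes summed to 12100 to 12200 CPM in WT and to between 16200 and 17400 CPM in the knockout. The leukocyte markers summed to at most 2.08 CPM, the endothelial markers to 1.28, the skeletal muscle markers to 1.51, the adipocyte markers to 2.88 and the neural markers to 0.777 CPM in any of the 6 libraries. Of the tested genes of these 5 lists, 1 was called, the muscle myosin *Myh3* (log2 fold change -2.65).

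Of 12253 genes tested, 404 were higher and 410 lower after *Kmt2d* KO, which is 6.64% of all genes tested, 3.3% in the higher and 3.35% in the lower direction. The changes were mostly moderate. The median log2 fold change was 0.71 among the higher genes, -0.80 among the lower genes and -0.0023 among all genes tested. Over 2-fold changes were seen in 130 of the higher and 167 of the lower genes, and over 4-fold changes in 44 and 89. All 404 higher and all 410 lower genes moved in the called direction in each of the 3 replicate pairs. The WT and *Kmt2d* KO libraries did not overlap in 195 of the higher and 235 of the lower genes, beside 10.6% of all genes tested. Scaling by total counts in place of TMM gave 286 higher and 598 lower genes, so that 32.4% of the calls were higher in place of 49.6%, with a median log2 fold change of -0.09 over all genes.

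The number of calls rested on single libraries. It fell from 814 to 317 without WT replicate 1, to 411 without WT replicate 2, to 323 without *Kmt2d* KO replicate 1 and to 311 without *Kmt2d* KO replicate 2, and rose to 2475 without WT replicate 3. Without replicate 3 of all genotypes, 1764 genes were higher and 1562 lower, or 27.1% of 12285 genes tested. These included 396 of the 404 higher and 409 of the 410 lower genes. A fit with no replicate block called 10 higher and 9 lower genes.

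The same libraries moved the counts of the gene lists described next. When single libraries were left out, the highest count came without WT replicate 3 for nearly every list and the lowest mostly without replicate 1 of either genotype or replicate 2 of the knockout. The calls ranged from 3 to 9 for the mesenchymal list, from 1 to 10 for angiogenesis and for the ERK list, from 3 to 10 for p53 targets, from 0 to 11 for mitosis, from 2 to 7 for fatty acid synthesis, from 0 to 23 for oxidative phosphorylation and from 0 to 27 for ribosomal proteins. Lists given below without a median had medians between -0.15 and 0.15. The count of every list stands beside 6.64% called among all genes tested, 3.3% higher and 3.35% lower. Lists near that share included the Hippo (7.69%), NF-kB (8.0%) and glycolysis (8.82%) lists.

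**Figure D1:**
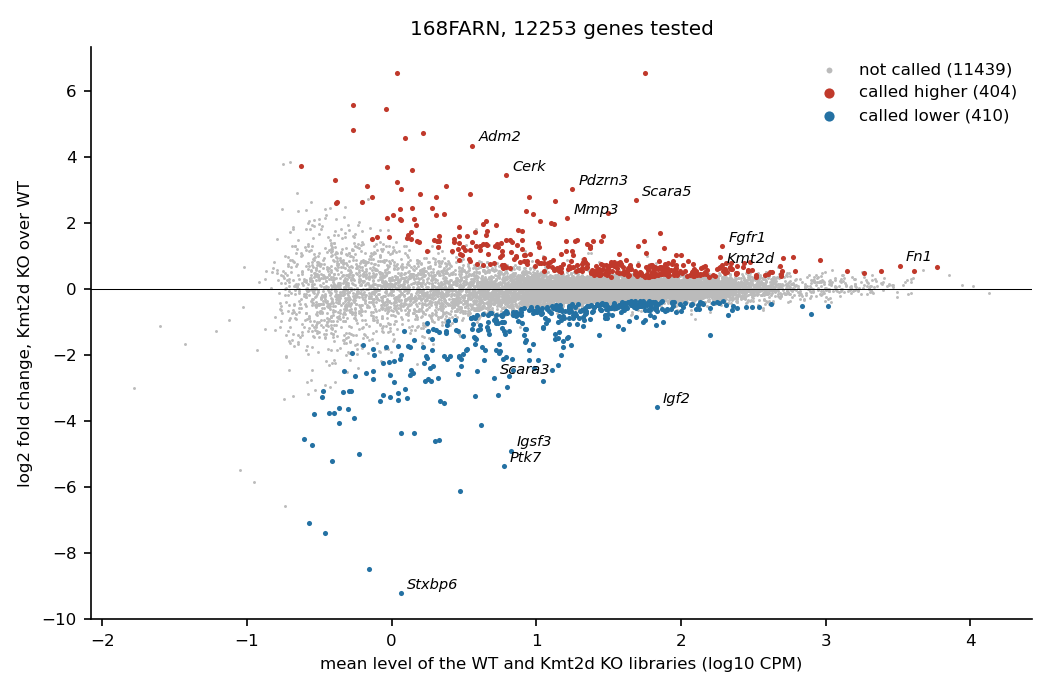
Log2 fold change of Kmt2d KO over WT in 168FARN (y axis) against the mean level of the 6 libraries in log10 CPM (x axis), with 1 point for each of the 12253 genes tested. The 404 genes called higher are red, the 410 called lower are blue and the others grey, and the changes at high levels are small beside those of Pdzrn3, Ptk7 or Igf2. The value of Stxbp6, which had no counts in the knockout, is a fitted value and no measured fold.

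The higher genes with the smallest p-values encode secreted, membrane and signalling proteins. *Pdzrn3* (chromosome 6, 101099601 to 101327891), which encodes a ubiquitin ligase with PDZ domains, was at 4.71, 4.32 and 2.65 CPM in WT and at 30.6, 37.0 and 26.8 CPM in the knockout. Its groups lay far apart, at a log2 fold change of 3.04 (standard error 0.15, edgeR adjusted p = 9.4e-07).

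Lipid and receptor genes followed. *Cerk* (chromosome 15, 85969558 to 86016571), the kinase that phosphorylates ceramide, was at 1.36, 1.07 and 0.627 CPM in WT and at 14.8, 13.5 and 5.88 CPM in the knockout. *Scara5* (chromosome 14, 66285240 to 66383663), a scavenger receptor that binds ferritin, was at 19, 19.5 and 4.23 CPM in WT and at 105, 104 and 41.3 CPM in the knockout. Every knockout library was above every WT library for both genes, and the log2 fold changes were 3.45 for *Cerk* (edgeR adjusted p = 1.2e-06) and 2.70 for *Scara5* (edgeR adjusted p = 2.4e-06).

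*Mmp3* (chromosome 9, 7445822 to 7455972), which encodes the matrix protease stromelysin-1, rose from 6.43, 6.79 and 4.67 CPM to 20.4, 34.0 and 25.6 CPM, a log2 fold change of 2.16 (standard error 0.16, edgeR adjusted p = 1.1e-05). *Csrp2*, a LIM domain protein of muscle cells, had a log2 fold change of 1.60 and *Cd84*, a receptor of the SLAM family, of 2.07. *Hspa12a*, a distant member of the HSP70 family, had 2.27 and *Mid1*, a ubiquitin ligase that binds microtubules, 1.46. For each of these 8 genes the groups did not overlap, and the call was kept in all 6 fits that left out 1 library. *Pdzrn3*, *Cerk*, *Scara5* and *Mmp3* are genes that the study itself picked from these libraries. Among genes with at least 5 CPM in either genotype, the largest rises also included *Adm2*, the secreted peptide adrenomedullin 2, from 0.307 ± 0.165 to 6.89 ± 1.93 CPM (SD, n = 3), and *Vtcn1*, the T cell inhibitory ligand B7-H4, from 0.814 ± 0.285 to 6.17 ± 2.99 CPM (SD, n = 3).

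**Figure D2:**
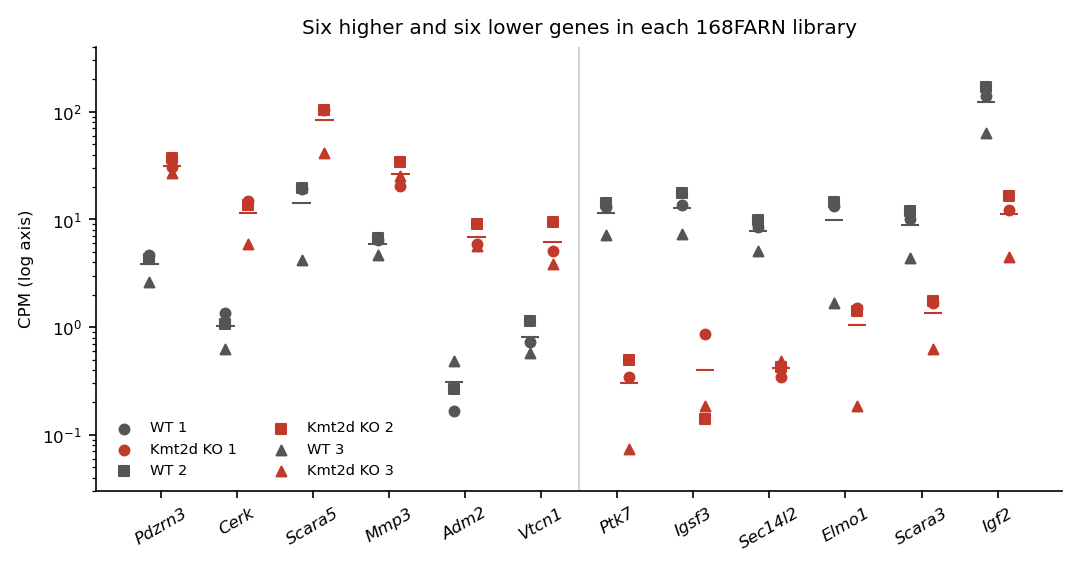
CPM on a log axis in each of the 3 WT (grey) and 3 Kmt2d KO (red) libraries of 168FARN, for 6 genes that were higher and 6 that were lower in the knockout. Circles, squares and triangles are replicates 1, 2 and 3, and short lines are means. Replicate 3 lies below replicates 1 and 2 in both genotypes for Scara5 and Elmo1, while the step from WT to Kmt2d KO has the same direction in each replicate.

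Among the lower genes, the smallest p-value belonged to *Ptk7* (chromosome 17, 46701400 to 46766453), a receptor with an inactive kinase domain that acts in planar cell polarity. It was at 13.1, 14.3 and 7.25 CPM in WT and at 0.346, 0.495 and 0.074 CPM in *Kmt2d* KO libraries, a log2 fold change of -5.37 (standard error 0.29, edgeR adjusted p = 1.2e-06). *Igsf3* (chromosome 3, 101181048 to 101266983), a membrane protein with immunoglobulin domains, fell from 13.7, 17.6 and 7.29 CPM to 0.866, 0.141 and 0.185 CPM. All knockout libraries lay far below all WT libraries for both genes.

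*Elmo1*, an adaptor that activates the GTPase Rac, was at 13.2, 14.6 and 1.67 CPM in WT and at 1.51, 1.41 and 0.185 CPM in the knockout. *Scara3*, a scavenger receptor-like protein, stood at 10.1, 12.1 and 4.39 CPM against 1.69, 1.77 and 0.629 CPM, so 1 class A scavenger receptor rose and another fell in the same cells. *Sec14l2*, a lipid-binding protein, fell from 8.59, 9.89 and 5.09 CPM to 0.346, 0.424 and 0.481 CPM, and the uncharacterized X-linked gene *3830417A13Rik* from 5.40, 3.54 and 8.69 CPM to 0, 0 and 0.222 CPM. The log2 fold changes of the other genes among the 10 with the smallest p-values were -2.40 for *Pla2g7*, a secreted phospholipase, -2.01 for *Arhgap29*, a GTPase-activating protein, -2.63 for *Oasl2*, an interferon-induced gene, and -1.21 for *Marcks*, an actin-binding substrate of protein kinase C. None of the 10 overlapped between the genotypes.

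*Igf2* (chromosome 7, 149836673 to 149852721), an imprinted growth factor gene, had the highest WT level among the genes that fell over 4-fold. Its levels were 141, 168 and 63.1 CPM in WT against 12.3, 16.6 and 4.48 CPM in the knockout. This was a log2 fold change of -3.59 (standard error 0.29, edgeR adjusted p = 0.00021). Of the 9 imprinted genes tested, *Igf2* and *Airn* (-0.61) were called, both lower, and of the 11 tested genes of the insulin-like growth factor system, *Igf2* and the protease *Htra1* (-0.49). The medians were 0.27 for the imprinted list and -0.01 for the insulin-like growth factor list.

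A small set of genes was switched on or off in the sense that all libraries of one genotype were under 0.5 CPM and all of the other over 2 CPM. *Adm2* and the carboxylesterase gene *Ces1f* passed in *Kmt2d* KO cells only, with *Ces1f* at 0.0331, 0.119 and 0.186 CPM in WT and 2.55, 3.11 and 3.92 CPM in the knockout. The 7 genes that passed in WT only were *Ptk7*, *Sec14l2*, *3830417A13Rik*, *Csn3*, *Fam198b*, *Nnmt* and *Stxbp6*. *Csn3*, which encodes the milk protein kappa-casein, stood at 5.20, 3.16 and 3.996 CPM in WT and 0.0433, 0.0707 and 0.333 CPM in the knockout. *Nnmt*, which methylates nicotinamide, stood at 3.81, 3.81 and 4.27 against 0.260, 0.424 and 0.444 CPM. *Stxbp6*, a SNARE-binding protein, was at 2.09, 2.32 and 2.51 CPM in WT with no read in any knockout library, so it was at least 15.3-fold lower against a floor of 3 counts per library.

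Interferon-stimulated genes had the highest share of calls, 68.2%, among the lists with more than 1 tested gene, and all their calls were in the lower direction. These genes are switched on when interferons, or the cell's own sensors of foreign nucleic acid, activate transcription factors of the STAT and IRF families, and many of their products restrict viruses. Of 46 genes listed, 44 were tested, of which 30 were called lower and 0 higher, beside 3.35% lower among all genes tested. In 38 of the 44, each *Kmt2d* KO library was below the WT library of the same number. The median log2 fold change of the 44 was -1.35, or -1.17 with *Rsad2*, which had no reads in the knockout, set to its bound.

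Sensors and transcription factors of the pathway were among them. *Irf7*, the factor that amplifies the interferon response, was at 15.5, 17.4 and 2.56 CPM in WT and at 2.55, 2.47 and 0.814 CPM in *Kmt2d* KO libraries (log2 fold change -2.45, edgeR adjusted p = 7.4e-05). *Irf9* and *Stat2*, partners in the factor ISGF3, had smaller log2 fold changes of -0.74 (edgeR adjusted p = 0.0078) and -0.48 (edgeR adjusted p = 0.013). *Irf1* was at a log2 fold change of -0.11 (edgeR adjusted p = 0.65). Of the cytosolic RNA sensors, *Ddx58*, which encodes RIG-I, was at -0.80 (edgeR adjusted p = 0.035) and *Dhx58* at -0.95 (edgeR adjusted p = 0.039), while *Ifih1* did not pass at -2.39 (edgeR adjusted p = 0.052).

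Effector genes of the interferon response were also lower. *Isg15*, a ubiquitin-like modifier, was at 25.6, 25.4 and 17.4 CPM in WT and at 9.01, 9.75 and 4.81 CPM after *Kmt2d* KO. *Oasl2* was at 14.7, 14.5 and 4.41 CPM against 1.60, 2.47 and 1.07 CPM. *Oas1a*, *Oas2* and *Oas3*, which make the activator of RNase L, had log2 fold changes of -2.58, -3.46 and -3.25 (edgeR adjusted p = 6.7e-05, 0.0043 and 0.00016). *Bst2*, the membrane tether of budding viruses, stood at 115, 121 and 17.1 CPM against 61.5, 66.3 and 10.2 CPM, and *Rtp4* at 30.1, 29.9 and 7.29 CPM against 3.29, 3.04 and 3.66 CPM. The groups did not overlap for *Isg15*, *Oasl2* or *Rtp4* and did for *Bst2*, where replicate 3 was low in both genotypes. *Gbp3* and *Igtp*, GTPases of host defence, had log2 fold changes of -2.33 and -1.85.

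**Figure D3:**
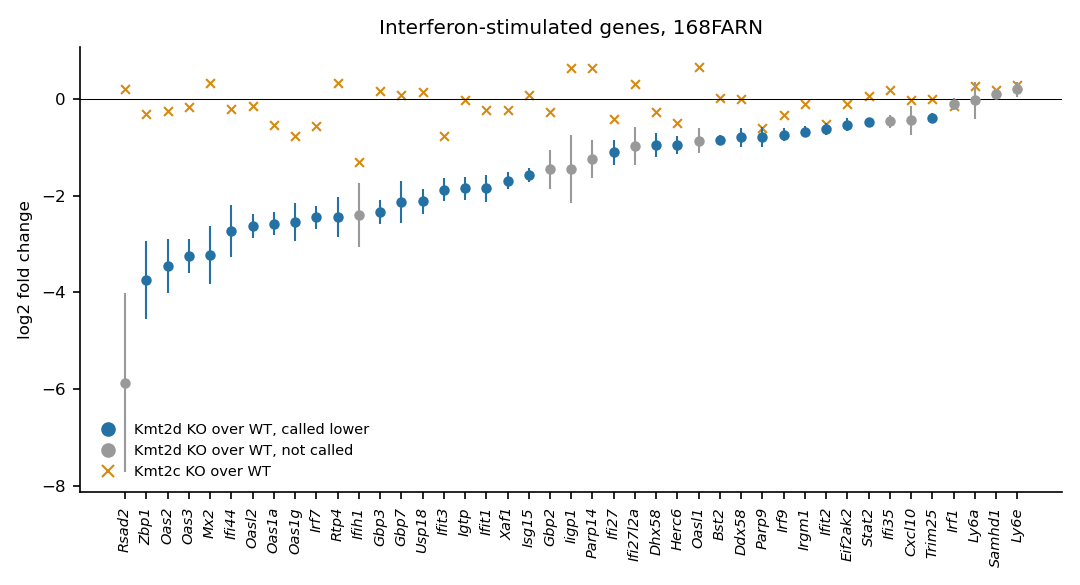
Log2 fold change over WT in 168FARN (y axis) of 43 of the 44 interferon-stimulated genes tested, ordered by the Kmt2d KO value (x axis). Points are Kmt2d KO with bars of 1 standard error, blue where called lower (30 genes) and grey where not called, and crosses are Kmt2c KO, which shares the WT libraries; 41 of these Kmt2d KO values are below 0. The value of Rsad2 is a fitted value for a gene without reads in the Kmt2d KO libraries.

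The promoters of several of these genes hold the letters of the response element that interferon-activated factors bind. RefSeq promoter windows of build GRCm38.p6, from 250 bases before to 50 bases after a start site, were searched on both strands for GAAANNGAAA. A window was found for 22 of the 30 genes called lower, and 14 of them held these letters, or 63.6%. The shares were 3.44% of 32851 windows, 3.68% of the 9380 tested genes with a window, and 4 of 8 interferon-stimulated genes that were tested and not called. The windows before the start site of the 5 genes with the smallest p-values that had one are shown 5′ to 3′ on the strand of the match, with the matched letters in capitals.
Isg15, chr4:156200879-156200904, gene on the minus strand: tgccgtagGAAAAGGAAAccgaaaca
Oas1a, chr5:120907528-120907553, gene on the minus strand: cttctcggGAAATGGAAActgaaaat
Gbp3, chr3:142559991-142560016, gene on the plus strand, match on the other strand: gggaaataGAAACTGAAActgtgtcc
Oas3, chr5:120777717-120777742, gene on the minus strand: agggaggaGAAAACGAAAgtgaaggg
Bst2, chr8:71537585-71537610, gene on the minus strand: cattccagGAAAATGAAActgaaagg
The match is a description of the letters and not of binding, which was not measured in these libraries.

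Several of these genes lie side by side. Among the tested genes in their order along each chromosome, 14 runs of at least 3 neighbours were called in the same direction. Of these runs, 6 were higher and 8 lower. How many such runs the same calls would give in a random gene order was not tested. The genes of these runs are named after their values were seen. *Ifit2*, *Ifit3*, *Ifit3b* and *Ifit1* on chromosome 19 were all lower, as were *Gbp7*, *Gbp3* and *Gbp2b* on chromosome 3, *Oas1b*, *Oas1g* and *Oas1a* on chromosome 5, and *Trim34a*, *Trim34b*, *Trim12c* and *Trim30a* on chromosome 7. In the opposite direction, 4 neighbours on chromosome 1 of the interferon-inducible p200 family were higher, *Mndal* (log2 fold change 0.46), *Mnda* (0.42), *Ifi203* (0.51) and *Ifi202b* (0.46). So were *Sp140* (1.08) and *Sp100* (1.06), nuclear body proteins that interferon can also induce. Members of the Oas, Gbp, Ifit, Trim and p200 families are close copies of each other, so reads can be split between them by the counting.

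Against the same WT libraries, the median log2 fold change of the interferon-stimulated genes was -0.10 in *Kmt2c* KO cells. In the direct comparison of the 2 knockouts, 26 of the 44 genes were lower in *Kmt2d* KO than in *Kmt2c* KO cells and 0 were higher, beside 6.63% of all genes tested called in either direction in that comparison. *Isg15* was at 23.9 CPM and *Rtp4* at 26.9 CPM on average in *Kmt2c* KO cells. In 67NR, 36 of 46 tested genes were lower and 2 higher in *Kmt2d* KO cells, where 41.8% of all 13665 genes tested were called, and the median was -1.39. The difference of the *Kmt2d* KO effect between the lines passed the test for 11 of the 46 genes, beside 29.0% of 13882 genes tested for it. The 168FARN count of 30 was 14 without *Kmt2d* KO replicate 1 and without *Kmt2d* KO replicate 2, 17 without WT replicate 1, and 36 without replicate 3 of all genotypes.

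Genes of antigen presentation and innate signalling gave smaller counts. Of 25 tested genes of MHC class I presentation and checkpoint ligands, 4 were lower and 1 higher (median -0.13), and *Vtcn1* was not listed. The lower ones were the peptide transporter genes *Tap1* (-0.84) and *Tap2* (-0.51), the immunoproteasome gene *Psmb9* (-1.20) and the lectin gene *Lgals9* (-0.65), and the higher one was *Nt5e*, the ectonucleotidase CD73, at 1.40. Of 25 genes of the NF-kB pathway, *Tlr3*, the endosomal sensor of double-stranded RNA, fell from 7.86, 7.71 and 9.01 CPM to 2.29, 1.55 and 3.04 CPM. *Tlr2* (-1.27) was also lower and the other 23 were not called. Of 22 chemokines and cytokines, *Clcf1* (0.86) and *Cx3cl1* (0.77) were higher and *Ccl5* (-2.03) was lower.

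Matrix proteases were called in both directions. The cluster of matrix metalloproteinase genes on chromosome 9 holds 10 genes, of which 4 passed the filter on low counts and 2 were called (median 1.59), *Mmp3* and the collagenase gene *Mmp13*. *Mmp13* was at 1.96, 2.35 and 0.465 CPM in WT and at 4.55, 6.85 and 1.29 CPM after *Kmt2d* KO, with overlapping groups and a call kept in 3 of 6 fits that left out 1 library (log2 fold change 1.39, edgeR adjusted p = 0.022). *Mmp10* stood at 2.25, 2.29 and 17.5 CPM against 3.25, 8.12 and 23 CPM, and *Mmp1b* at 0, 0 and 1.28 CPM against 0, 0.283 and 4.07 CPM. Neither passed (edgeR adjusted p = 0.061 and 0.14). Outside the cluster, 1 of 23 tested metalloproteinases and inhibitors was higher, *Mmp28* (1.19), and 3 were lower. These were the gelatinase gene *Mmp9* (-1.49), *Adam19* (-0.88) and *Adamts10*, which was at 1.89, 1.61 and 0.697 CPM in WT with no read in the knockout, at least 9.26-fold lower.

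Proteoglycans and matricellular proteins were called mostly in the higher direction. Of 25 tested proteoglycans and matricellular proteins, 7 were higher and 1 lower, with a median log2 fold change of 0.16, beside 6.64% called among all genes. The higher ones included *Prelp* (1.74), *Sparcl1* (1.36), *Acan* (4.83, from at most 0.0929 CPM in WT to between 0.866 and 1.22 CPM) and *Vcan* (0.81), which encode matrix proteoglycans and glycoproteins. *Ogn*, the small proteoglycan osteoglycin, was lower at 14.9, 16.3 and 11.4 CPM against 4.80, 4.66 and 1.33 CPM. This list had 7 to 11 calls when single libraries were left out. Of 23 collagen chains *Col6a3* (0.64) was called and of 13 laminins and basement membrane genes *Tinagl1* (0.67), both higher. Of 19 collagen-processing enzymes, *Loxl3* was higher (0.57) and *Plod2* lower (-0.41). Scaling by total counts gave 0 higher and 4 lower enzymes.

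Of 18 tested mesenchymal genes, 5 were higher and 2 lower (7 and 3 without replicate 3 of all genotypes), with a median of 0.19. *Fn1*, which encodes fibronectin, was at 3211, 3685 and 731 CPM in WT and at 5144, 5346 and 1372 CPM in *Kmt2d* KO libraries, a log2 fold change of 0.71 (edgeR adjusted p = 0.0053). *Twist2* (0.76), *Twist1* (0.65), *S100a4* (0.56) and *Pdgfra* (0.41) were also higher. Other transcription factors of the epithelial-mesenchymal programme were lower, *Snai2* from 6.43, 6.04 and 14.2 CPM to 2.64, 1.20 and 2.81 CPM (log2 fold change -1.93, edgeR adjusted p = 0.00099) and *Zeb1* at -0.40. Of the 5 epithelial genes tested (median -0.71), the keratin gene *Krt7* was lower, from at most 0.630 CPM in WT to no reads, while *Krt8* stood at 124, 124 and 390 CPM against 97.5, 112 and 380 CPM and was not called (edgeR adjusted p = 0.38).

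Genes that act at the vessel wall also included more higher than lower calls. Of 17 tested genes of coagulation and fibrinolysis, 4 were higher and 1 lower, with a median of 0.27. They were thrombomodulin, *Thbd* (0.59), coagulation factor XII, *F12* (1.34), tissue factor pathway inhibitor, *Tfpi* (0.85), and von Willebrand factor, *Vwf* (1.33), while protein S, *Pros1*, was lower (-0.78). The list fell to 1 call without *Kmt2d* KO replicate 1 or 2. Of 27 angiogenic factors and receptors, *Esm1*, *Angpt2* (0.82) and *Figf* (0.63) were higher and 0 lower. *Esm1*, the secreted proteoglycan endocan, was at 1.03, 0.804 and 6.39 CPM in WT and at 3.85, 2.97 and 65.3 CPM in the knockout, so most of its reads came from replicate 3.

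Guidance cues and their receptors were called higher in 10 of 42 tested genes and lower in 1, with a median of 0.13. *Sema6a*, a transmembrane semaphorin, was at 2.09, 2.50 and 1.98 CPM in WT and at 7.06, 7.56 and 5.88 CPM after *Kmt2d* KO (log2 fold change 1.63, edgeR adjusted p = 0.0003). *Sema6d* (1.28), the secreted *Sema3d* (3.24) and the receptor gene *Plxna2* (0.76) were also higher. *Sema3c*, a secreted semaphorin, was the lower one, from 23.2, 22.6 and 15.6 CPM to 10.3, 7.21 and 7.14 CPM. The total of 11 calls was 5 without replicate 1 of WT and without replicate 2 or 3 of the knockout, and 7 higher and 1 lower genes were called with scaling by total counts. Of 15 integrin subunits, *Itga10* (1.45) and *Itgb7* (0.54) were higher and *Itga7* (-0.64) lower. Of 24 cadherins and adhesion molecules, *Cd84* and *Pcdh19* (0.54) were higher, and *Fat1* (-0.59) and *Pcdh18* (-0.85) lower.

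A receptor and a ligand of the fibroblast growth factor family were higher. *Fgfr1*, a fibroblast growth factor receptor, was at 122, 125 and 68.9 CPM in WT and at 361, 352 and 129 CPM after *Kmt2d* KO (log2 fold change 1.31, standard error 0.14, edgeR adjusted p = 0.00014). *Fgf10*, a ligand of this family that signals mainly through another of its receptors, was at 89.4, 75.8 and 31.1 CPM against 169, 174 and 63.2 CPM (log2 fold change 1.04, edgeR adjusted p = 0.00012). Of 16 receptor tyrosine kinases tested, *Fgfr1* and *Pdgfra* were higher and *Ptk7* lower. Of 28 ERK feedback and ETS genes, *Hmga2* (0.96), *Etv1* (0.58), *Dusp2* (0.72) and *Etv4* (0.46) were higher and *Dusp14* (-0.68) was lower. *Hmga2*, a chromatin protein of embryonic and tumour cells, was at 312, 322 and 405 CPM in WT and 682, 614 and 699 CPM in the knockout, and its groups did not overlap.

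Of 41 tested TGF-beta and BMP genes, 7 were higher and 0 lower, with a median of 0.11. They included *Tgfbi* (1.96), a matrix protein induced by TGF-beta, the decoy receptor gene *Bambi* (1.40), the BMP target *Id1* (0.58) and *Ltbp3* (0.53), which binds latent TGF-beta. Without replicate 3 of all genotypes, 9 genes of this list were higher and 9 lower, and without WT replicate 1 alone 2 were called. With scaling by total counts, 4 were higher and 2 lower. Of 26 AP-1 and immediate early genes, *Egr3* (1.62), *Klf10* (0.53) and *Klf4* (0.46) were higher and *Btg2* (-1.52) lower. The balance turned with scaling by total counts, where 1 gene of the AP-1 list was higher and 3 were lower. Of 24 Notch genes, *Dll1* (1.04) and *Maml3* (0.53) were higher and *Dtx4* (-0.74) lower. Wnt signalling had 1 call in 28 tested genes, *Tcf7* (-1.24), and the Hippo list 2 in 26, *Vgll3* (-2.12) and *Ankrd1* (-0.99).

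Of 45 mitotic genes 2 were higher, *Cdc25b* (0.44) and *Ube2c* (0.70), which is 4.44% beside 6.64% among all genes. Of the 45, 34 had a value above 0, 18 were higher in all 3 pairs, and 13 were called higher without replicate 3 of all genotypes. Of 53 genes of DNA replication and repair 1 was higher, *Mcm6* (0.50). Of 19 G1 cyclins and CDK inhibitors 0 were called in either direction. Target genes of p53 were called lower in 4 of 33 cases and higher in 0, with a median of -0.17. *Btg2*, an antiproliferative factor, fell from 24.3, 25.9 and 9.50 CPM to 7.49, 9.33 and 3.70 CPM. *Plk2* (-0.80), the death receptor gene *Fas* (-1.35) and *Trp53inp1* (-0.60) were the others. Summed levels of the mitotic genes ranged from 2710 to 9810 CPM over the WT libraries and from 3160 to 10600 CPM over the *Kmt2d* KO libraries, a range set by replicate 3 in both.

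Genes of lipid synthesis and of the antioxidant response were called mostly in the lower direction. Of 32 genes of fatty acid and lipid synthesis, 5 were lower and 0 higher, with a median of -0.20. *Elovl4*, an elongase of very long chain fatty acids, was at 8.59, 6.07 and 5.11 CPM in WT and at 2.21, 0.989 and 0.555 CPM after *Kmt2d* KO. The desaturase genes *Fads2* (-0.60) and *Fads1* (-0.41), the lipid carrier *Fabp5* (-0.69) and *Scd2* (-0.50) were also lower. Of 39 genes of glutathione and the antioxidant response, 7 were lower and 1 higher, with a median of -0.09. *Mgst1*, a microsomal glutathione transferase, was at 22.3, 21.4 and 6.50 CPM against 4.55, 5.79 and 1.44 CPM. *Cat*, which encodes catalase (-0.64), *Hmox1*, which encodes haem oxygenase 1 (-0.50), and *Gsta1* (-2.72) were lower too, and extracellular superoxide dismutase, *Sod3*, was higher (1.503). These 8 calls fell to 2 without *Kmt2d* KO replicate 2.

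Sphingolipid enzymes were called in both directions, with *Cerk* and the sphingosine phosphate exporter *Spns2* (2.12) higher and *Asah2* (-0.93), *B4galnt1* (-0.42) and *Sgms2* (-0.61) lower among 30 genes tested. Of 34 genes of glycolysis and hypoxia, *Ndrg1* (0.71) was higher and *Adm* (-0.70) and *Pgam1* (-0.56) were lower. Oxidative phosphorylation gave 2 lower calls in 62 genes, *Atp5a1* (-0.45) and *Ndufv1* (-0.40). Of 63 cytosolic ribosomal protein genes 0 were called, and 32 were called higher and 1 lower without replicate 3 of all genotypes. The unfolded protein and ATF4 response had 2 calls in 45 genes, *Vldlr* (0.62) and the cystine transporter gene *Slc7a11* (-0.73).

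Among 15 tested factors of the mammary lineage and hormone receptors, 40.0% were called, beside 6.64% among all genes tested. The median was 0.31, with 6 genes higher and 0 lower. They included *Tbx3* (0.76), *Sox9* (0.75), *Gata3* (0.48), *Tfap2a* (0.62) and the growth hormone receptor gene *Ghr* (0.55). *Sox9*, a factor of progenitor cells, was at 64.2, 64.4 and 42.1 CPM in WT and at 98.1, 127 and 65.5 CPM in the knockout. *Gata3*, a luminal factor, was at 58.9, 51.6 and 21.6 CPM against 79.8, 76.9 and 29.2 CPM, with overlapping groups. The count was 2 without *Kmt2d* KO replicate 1, *Kmt2d* KO replicate 2 or WT replicate 2, and 4 with scaling by total counts. Of 17 Hox genes 0 were called. Of 18 scavenger and lipoprotein receptors, *Scara5*, *Vldlr* and *Scarf2* were higher and *Scara3* and *Sort1* lower. Of 19 glucocorticoid targets *Rgs2* (1.10) was higher, and of 9 S100 genes *S100a4* was higher, with a median of 0.38 for the S100 list. Of 31 smooth muscle and actin genes, 3 were higher, among them *Csrp2* and *Flna* (0.59), and 3 lower, *Myh10* (-2.13), *Pdlim1* (-0.52) and *Sorbs2* (-0.80). *Myh10*, a nonmuscle myosin heavy chain, went from 4.11, 5.36 and 5.27 CPM to 0.866, 1.41 and 1.15 CPM.

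**Figure D4:**
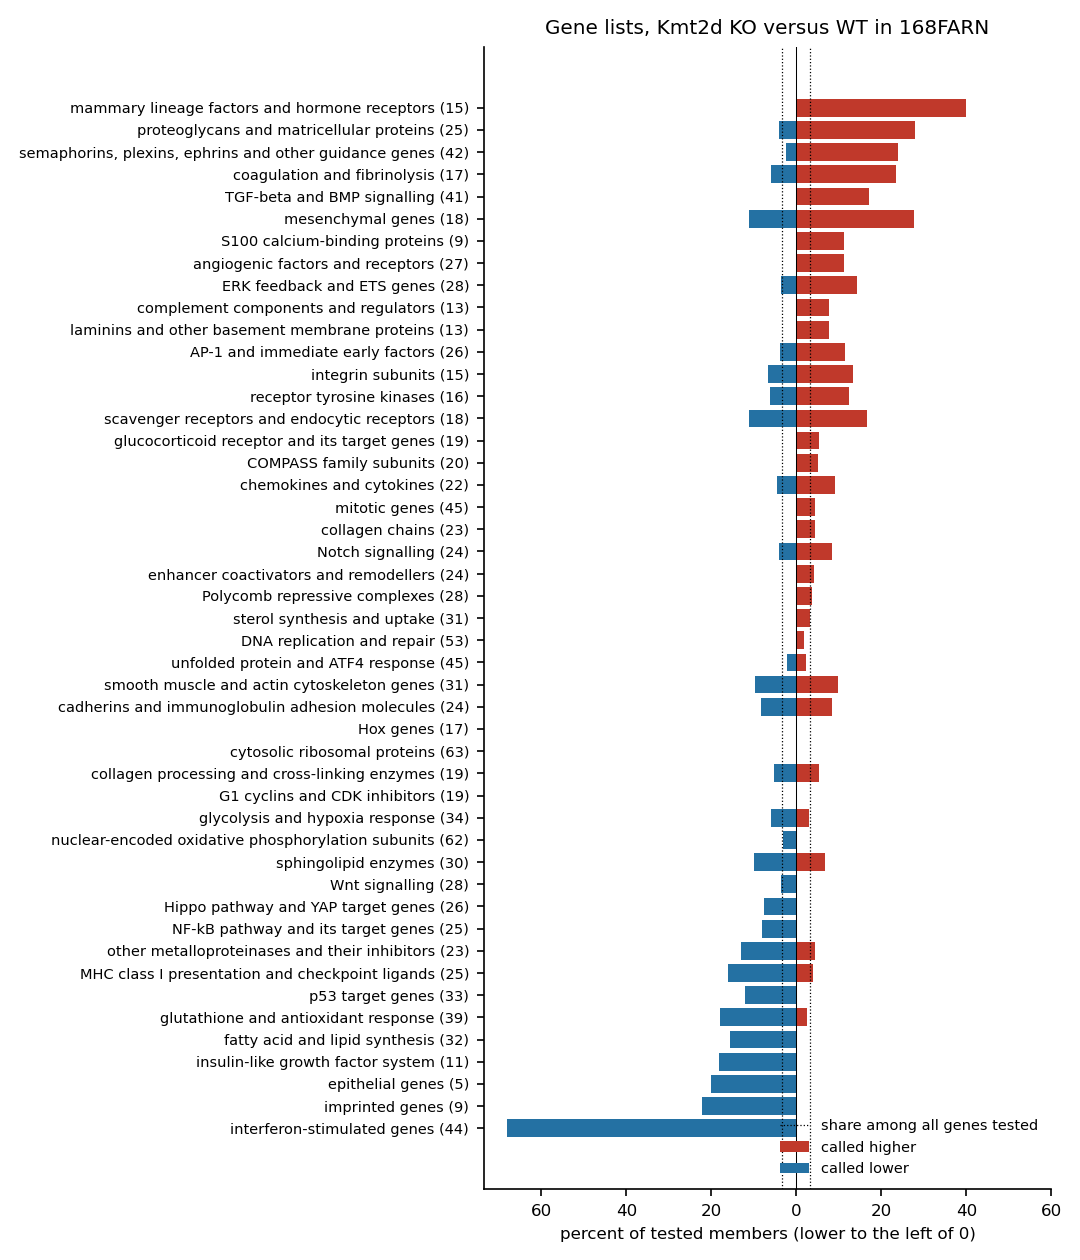
Percent of the tested members of each gene list that were called higher (red, right of 0) or lower (blue, left of 0) in Kmt2d KO over WT in 168FARN, with the number of tested members in brackets, for lists with at least 5. Dotted lines mark the shares among all genes tested, 3.3% higher and 3.35% lower, and the interferon-stimulated genes have the longest bar, with 30 of 44 lower.

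Of the genes of the COMPASS family itself, *Kmt2d* was the one of 20 that was called, and their median was 0.09. *Kmt2c* was at 113, 106 and 44.7 CPM in WT and at 137, 83.0 and 46.5 CPM after *Kmt2d* KO. *Kdm6a* (chromosome X, 17739701 to 17857062) was at 57.0 ± 12.1 CPM in WT and at 56.2 ± 16.2 CPM after *Kmt2d* KO (SD, n = 3), a log2 fold change of -0.03 with a standard error of 0.13. Of 24 enhancer coactivators and remodellers *Chd7* was higher (0.72) and of 28 Polycomb genes *Cbx6* was higher (0.61).

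The calls were spread unevenly over the chromosomes. On the X chromosome, 69 of 394 tested genes were higher and 17 lower, which is 21.8% beside 6.64% over all genes, and the median log2 fold change of its genes was 0.26. The medians of the 3 replicate pairs there were 0.23, 0.18 and 0.21 on the log2(CPM + 1) scale. Chromosome 15, which carries *Kmt2d*, had 49 higher and 7 lower of 482 genes and a median of 0.16 (0.17, 0.17 and 0.13 in the replicate pairs). Chromosome 1 had 52 higher and 15 lower of 658 genes and a median of 0.12. Chromosome 18 went the other way, with 4 higher and 31 lower of 295 genes and a median of -0.20 (-0.17, -0.24 and -0.14 in the replicate pairs). The medians of the other chromosomes were between -0.10 and 0.06.

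Of the higher genes with the smallest p-values, *Mid1* lies on the X chromosome and *Cerk* on chromosome 15. *Mid1* was at 32.3, 27.7 and 29.1 CPM in WT and 91.9, 82.7 and 70.3 CPM in the knockout. A run of 5 neighbours on the X chromosome was higher, from *Prps2* (0.74) through *Msl3* (0.74), *Arhgap6* (2.06) and *Hccs* (0.82) to *Mid1*, and a second from *Zrsr2* (0.66) through *Car5b* (0.63), *Siah1b* (0.86) and *Figf* to *Piga* (0.60). In *Kmt2c* KO cells, compared with the same WT libraries, the medians were 0.29 for the X chromosome, 0.10 for chromosome 15, -0.02 for chromosome 1 and -0.23 for chromosome 18. In 67NR *Kmt2d* KO cells they were 0.12, -0.06, -0.16 and 0.20 in the same order. DNA copy number was not measured in these libraries, and its part in these values was not tested.

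**Figure D5:**
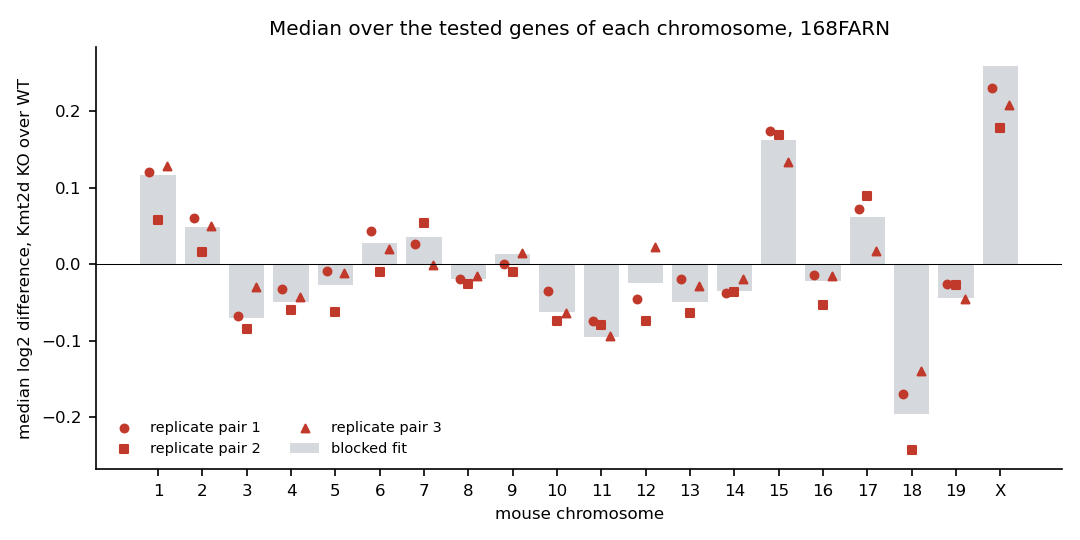
Median log2 difference of Kmt2d KO over WT (y axis) over the tested genes of each mouse chromosome (x axis) in 168FARN. Grey bars are medians of the fit with the replicate block, and red circles, squares and triangles are the medians of replicate pairs 1, 2 and 3 on the log2(CPM + 1) scale. Chromosomes 1, 15 and X lie above 0 and chromosome 18 below 0 in every pair.

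The direct comparison of the 2 knockouts asked where *Kmt2d* KO differed from *Kmt2c* KO in the same line. It called 385 genes higher and 427 lower after *Kmt2d* KO, or 6.63% of the genes tested. *Thsd4*, an extracellular matrix protein, was at 20.2 CPM on average in *Kmt2d* KO, 5.17 in WT and 0.603 CPM in *Kmt2c* KO cells, and *Flrt3*, a membrane protein of cell adhesion, at 27.2, 10.00 and 4.17 CPM. Both lay on opposite sides of WT in the knockouts, which share the WT libraries.

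*Mrgprx2* and *Gm364* were higher in *Kmt2d* KO than in *Kmt2c* KO cells and near 0 in the latter, at 0.394 and 0.413 CPM. Neither was called in *Kmt2d* KO cells against WT, with log2 fold changes of 0.36 and -0.34. Among the lower genes, *Scara3* was at 9.44 CPM in *Kmt2c* KO cells, close to its mean of 8.84 CPM in WT, against 1.36 CPM after *Kmt2d* KO (log2 difference -2.84, edgeR adjusted p = 1.1e-05). *Nptx1*, a secreted pentraxin, and *Arl6ip1*, a membrane-shaping protein of the endoplasmic reticulum, had log2 differences of -1.45 and -1.42. *Pitpnc1* (-2.29) and *Pla2g5* (-1.64) were higher in *Kmt2c* KO cells and not called in *Kmt2d* KO over WT. Several of the leading genes did not pass this test. The log2 difference was 0.25 for *Cerk* (standard error 0.16, edgeR adjusted p = 0.38) and 0.39 for *Scara5* (standard error 0.15, edgeR adjusted p = 0.14). It was -0.49 for *Mmp3* (standard error 0.15, edgeR adjusted p = 0.076). These p-values do not show that the knockouts were alike at these genes.

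The *Kmt2d* KO of 67NR, a second non-metastatic mammary tumour line, shares no libraries with 168FARN. There, 2906 genes were higher and 2801 lower. Of the 404 genes higher in 168FARN, 379 were tested in 67NR, where 141 of them (37.2%) were higher and 82 (21.6%) lower. Of the 410 lower genes, 394 were tested, and 133 (33.8%) were lower and 119 (30.2%) higher. For the 11988 genes tested in both lines, 21.9% were higher and 18% lower in 67NR. Taken from the other side, 5.38% of the genes higher in 67NR were also higher in 168FARN, and 6.16% of the lower ones were lower.

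The difference between the lines was tested itself, in a fit of all 18 libraries. The *Kmt2d* KO effect differed for 253 of the 404 higher and 228 of the 410 lower genes, and the 168FARN libraries that gave these calls also entered this test. *Mmp3* rose in both lines, with a log2 fold change of 1.60 in 67NR (edgeR adjusted p = 0.00017) and a difference of -0.62 between the lines, taken as 67NR minus 168FARN (edgeR adjusted p = 0.13). *Hmga2* rose by 1.30 and *Clcf1* by 1.27 in 67NR, and *Myh10* and *Scara3* were lower there too, with log2 fold changes of -1.64 and -2.77.

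*Fgf10* rose in both lines but from unlike levels, from 65.4 to 135 CPM on average in 168FARN and from 0.314 to 30.4 CPM in 67NR, and the difference of 5.44 passed the test (edgeR adjusted p = 4.5e-11). *Cerk* went in opposite directions, with a log2 fold change of -1.92 in 67NR (edgeR adjusted p = 2.5e-05), as did *Vldlr*, the very low density lipoprotein receptor gene, at -1.996 in 67NR, *4930523C07Rik*, at 1.47 in 168FARN and -1.22 in 67NR, and *Tnnt2*, a troponin gene, at 1.44 and -2.25. *Snai2* was lower in 168FARN and higher in 67NR, where its log2 fold change was 3.996. *Il1rl1*, *Epb41l3*, *Hexa* and *Cadm1* rose by 4.10 to 7.02 in 67NR, while in 168FARN *Epb41l3* fell by 0.41 and the other 3 were not called. *Foxf1* was lower in 67NR by a log2 fold change of -6.12 and not called in 168FARN (edgeR adjusted p = 0.3).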

How the data were processed

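Per the labels and the study's methods, total RNA of cultured cells was made into mRNA libraries with a strand-specific kit and sequenced. Reads were aligned to mm9 with STAR in the VIPER pipeline. The authors deposited raw counts of reads per gene symbol, 1 table per cell line, and whether counting used strand is not given in the sources used here. The 2 tables were fitted separately except in the test between lines.

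Genes were filtered by filterByExpr on genotype and scaled by TMM in edgeR 4.0.16 (R 4.3.3), which left 12253 genes in 168FARN. A robust quasi-likelihood fit with genotype and replicate number as a block was made over the 9 libraries of 168FARN, and calls were genes with a Benjamini-Hochberg adjusted p under 0.05. The block was kept because same-numbered libraries deviated together, with correlations of deviations from the genotype means of 0.751 to 0.93 over 9 pairs, although replicates 1 and 2 also correlated across numbers, at 0.72 to 0.824. The difference between lines was an interaction term over 18 libraries. Alternatives were DESeq2 1.42.0, other scalings, filters, samples and thresholds, and each library left out. Counts cover 14359760 to 43427382 reads per 168FARN library, and *Rn45s*, a ribosomal precursor RNA, took 0.599% to 3.11% of the WT and *Kmt2d* KO libraries. Of the 67NR libraries, *Kmt2d* KO replicate 3 had 28.7% of its reads there, and leaving *Rn45s* out was an alternative chosen after seeing the data.

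Libraries were grouped by the labels. The comparison and the 53 gene lists were chosen with earlier results of these data known. The genes named were *Kmt2d*, *Kmt2c*, *Kdm6a* and 8 genes the study names. Added were, in each direction, the 10 called genes with the smallest p-values and the 5 with the largest changes at 5 CPM or more. Genes off in either genotype and on in the other were also named. So were up to 4 called members per list and direction, and the 5 leading genes per direction of the other comparisons. Other genes, among them the further list members, the neighbours along chromosomes and *Irf1* and the marker genes, were picked after their values were seen. Some genes that the rule names are not reported here. Symbols that could not be placed in the annotation were left out of the counts per chromosome.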

Additional observations from a re-analysis of the deposited data

Results flagged for a closer look

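The *Kmt2d* KO effect was compared between the lines, as 67NR minus 168FARN, for 27 of the named genes, and it differed for 21 of them by the edgeR interaction test at an adjusted p under 0.05. All values here are log2 differences between the lines, except where given as log2 fold changes in 67NR or as CPM. Genes that were higher in 168FARN and had a lower value in 67NR were *Cerk* (-5.43), *Pdzrn3* (-4.80), *Mmp13* (-4.54), *Vtcn1* (-3.66), *Hspa12a* (-2.71), *Scara5* (-2.23), *Mid1* (-1.91) and *Csrp2* (-1.65). Of these, *Mmp13*, *Cerk* and *Pdzrn3* were called lower in 67NR, with log2 fold changes there of -3.09, -1.92 and -1.70. *Hspa12a*, *Scara5*, *Mid1* and *Csrp2* were not called in 67NR. For *Cd84* (-5.51) and *Adm2* (-4.51) the differences are fitted values and no measured fold, since both genes were at or near 0 in 67NR, with mean levels for WT and knockout of 0.0232 and 0 CPM (*Cd84*) and of 0.0364 and 0.0383 CPM (*Adm2*). Genes that were lower in 168FARN and had a higher value in 67NR were *Igf2* (3.93), *Igsf3* (3.43), *Ptk7* (3.42), *Sec14l2* (3.25), *Elmo1* (2.32), *Arhgap29* (1.76), *Pla2g7* (1.32) and *Marcks* (0.96). A smaller fall gave some of these differences. *Ptk7*, *Igsf3*, *Pla2g7* and *Sec14l2* were also called lower in 67NR, with log2 fold changes there of -1.89, -1.40, -1.01 and -0.81. *Igf2*, *Elmo1*, *Arhgap29* and *Marcks* were not called in 67NR. Levels in 67NR were also low for *Igf2* and *Hspa12a*. The means for WT and knockout there were 0.64 and 0.87 CPM (*Igf2*) and 0.71 and 0.54 CPM (*Hspa12a*). Genes not called in 168FARN that differed were *Mmp10* (1.82), *Kmt2c* (0.73) and *Kdm6a* (0.68). The 168FARN genes were chosen for their change in that line, so a difference towards a smaller change in 67NR is favoured by the choice.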

How the results depend on the processing

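The counts of calls depended on the replicate block and on single libraries. With no replicate block, 19 genes were called for *Kmt2d* KO against WT in 168FARN, 21 against *Kmt2c* KO, 3116 in 67NR and 1013 for the difference between lines. With an absolute log2 fold change over 1 also required, the counts were 297, 292, 2691 and 2130 in that order. Leaving out a library or a replicate number gave 213 to 3326, 198 to 2827, 2959 to 6698 and 1644 to 5022 calls. The counts under the other alternatives were within 1.5 times the reported ones, DESeq2 included (1192, 1075, 6068 and 4443).

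Of 166 named genes, 22 kept their side of the threshold with no replicate block and 144 did not pass. Genes called in neither fit, such as *Kdm6a* and *Kmt2c*, count among the 22. All 166 kept their direction and side of the threshold with DESeq2 size factors and without *Rn45s*, and 165 did with DESeq2. Values of genes that were not called changed sign. *Kmt2c* was at -0.019 with no filter on low counts, -0.017 with the compared groups only and -0.09 with total counts, and between -0.171 and 0.173 when libraries were left out. *Kdm6a* was between -0.14 and 0.128 when libraries were left out. *Pitpnc1* was at -0.048 with total counts and between -0.028 and 0.185 when libraries were left out. The cause of these changes was not tested.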
